A study of Homo sapiens with 8 samples.

Results

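The imprinted 14q32 small RNA cluster was followed from cells into exosomes of MEC-1, an established line of B cells from chronic lymphocytic leukaemia. Its members were the miRNA genes of chromosome 14 whose annotated start lay between 101290000 and 101550000 (GRCh37), together with every gene of the C/D box snoRNA families SNORD113 and SNORD114. The choice used gene positions and names and no measured value. It gave 88 of the 2709 non-coding RNA features in the count tables: 49 miRNAs, of which 10 lie before the snoRNAs (proximal) and 39 after them (distal), and 9 SNORD113 and 30 SNORD114 genes between them.

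Small RNA sequencing libraries came from exosomes, small membrane vesicles that cells release (n = 5), and from the MEC-1 cells that release them (n = 3). The cells, of this 1 line, were grown in bioreactors in medium with 10% fetal calf serum. All medium except that of the upper bioreactor compartment was first cleared of serum exosomes at 100000 g, and the vesicles themselves were pelleted at 100000 g with a 20% Optiprep cushion step. Both kinds of library took RNA under 200 nt, 30 ng per library and 15 PCR cycles, so they differ by vesicle or cell origin and by the vesicle preparation. Total counts per library ran from 23353820 to 32436286 in exosomes and from 25675636 to 57323598 in cells. Whether the replicates are separate cultures is not in the labels; the p-values therefore reflect the spread among these libraries, which may be technical. Cell 2 and exosome 5 had the smallest TMM scaling factors, 0.552 and 0.524, against 0.905 to 1.46 in the other libraries. Of 9 listed B-cell miRNAs, 4 were in the tables and none was called. MIR21, which many cell types express, made up nearly all of their sum, with a mean of 11200 CPM (counts per 1000000 counts of a library) in exosomes and 20200 CPM in cells. MIR150, a lymphocyte miRNA, had 24.9 ± 20.9 CPM in exosomes and 8.33 ± 8.43 CPM in cells (SD, n = 5 and 3). MIR223, a myeloid miRNA, had 249, 118, 232, 21 and 70 reads in exosomes 1 to 5, and 194, 2 and 229 reads in cells 1 to 3.

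The 14q32 domain, also called DLK1-DIO3, is imprinted: its small RNAs and long non-coding RNAs are expressed from the maternal chromosome, and the protein-coding genes DLK1, RTL1 and DIO3 from the paternal one. The miRNAs are processed from long transcripts of the domain and are best known from brain, placenta, muscle and stem cells; miRNAs pair with messenger RNAs mainly through the seed near their 5′ end. C/D box snoRNAs usually guide ribose methylation of other RNAs, but SNORD113 and SNORD114 are known as orphans, with no established target.

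The mature sequences below belong to the 5 miRNAs that passed the test against cells, to MIR127, which had the most reads, and to a pair that shares a seed while only 1 of its genes had reads. Sequences are 5′ to 3′ on the plus strand, from RefSeq (GRCh38.p14), and capitals mark the seed, bases 2 to 8. Both arms are given because the tables count reads per miRNA gene and cannot tell the arms apart.
hsa-miR-493-5p: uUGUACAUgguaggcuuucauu
hsa-miR-493-3p: uGAAGGUCuacugugugccagg
hsa-miR-127-5p: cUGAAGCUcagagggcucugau
hsa-miR-127-3p: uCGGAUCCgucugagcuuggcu
hsa-miR-432-5p: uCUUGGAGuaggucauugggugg
hsa-miR-432-3p: cUGGAUGGcuccuccaugucu
hsa-miR-379-5p: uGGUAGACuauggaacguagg
hsa-miR-379-3p: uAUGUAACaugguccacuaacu
hsa-miR-411-5p: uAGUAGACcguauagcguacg
hsa-miR-411-3p: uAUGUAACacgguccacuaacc
hsa-miR-412-5p: uGGUCGACcaguuggaaaguaau
hsa-miR-412-3p: aCUUCACCugguccacuagccgu
hsa-miR-381-3p: uAUACAAGggcaagcucucugu
hsa-miR-300: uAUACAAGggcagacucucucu

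Mature sequences were found for all 49 miRNA genes, 90 in all, where a sequence made by 2 gene copies counts once for each copy. The 3p arms of MIR379 and MIR411, neighbouring genes that both passed the test, carry the same seed, AUGUAAC. hsa-miR-381-3p and hsa-miR-300 share the seed AUACAAG, yet MIR381 had reads in every exosome library and MIR300 had 0 reads in all 8 libraries. Among the 90 mature sequences, 11 seeds belonged to more than 1 gene of the cluster and covered 18 genes. For both arms of the MIR329 copies and the 5p arm of the MIR1185 copies, the genes make the same mature miRNA. The widest was GGUUGUC, found in the 5p arms of MIR323B, MIR410 and MIR494.

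In GENCODE release 29, 8 of the 9 SNORD113 and 29 of the 30 SNORD114 genes lie in introns of the long non-coding RNA MEG8, and SNORD113-4 and SNORD114-26 overlap its exons. Of the 39 distal miRNAs, 13 lie in MEG8 introns, 6 in MIR381HG introns, 5 in MEG9 introns and 1, MIR410, in a MEG9 exon, with 14 in no annotated gene. Of the 10 proximal miRNAs, 5 lie opposite an exon of RTL1: MIR431, MIR433, MIR127, MIR432 and MIR136.

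The following snoRNA sequences are the only snoRNA that passed the filter on low counts (SNORD113-5) and the 3 with the most reads in the cell group. They are written as DNA on the plus strand, from GENCODE release 29 (GRCh38), with capitals for the letters TGATGA of the C box and CTGA of the D box.
SNORD113-5: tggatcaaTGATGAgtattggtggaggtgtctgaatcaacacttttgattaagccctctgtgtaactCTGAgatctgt
SNORD113-7: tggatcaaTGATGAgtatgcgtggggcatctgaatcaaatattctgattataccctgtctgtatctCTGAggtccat
SNORD114-22: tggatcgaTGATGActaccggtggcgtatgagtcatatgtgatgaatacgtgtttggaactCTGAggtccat
SNORD114-1: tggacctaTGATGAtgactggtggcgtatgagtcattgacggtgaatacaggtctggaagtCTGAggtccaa

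The C box letters were sought in the first 20 bases and the D box letters in the last 20, on the transcript strand only. Both were present in 28 of the 39 snoRNAs, and in 23.0% of all 955 snoRNA transcripts of the annotation, which include other snoRNA classes. The 39 genes are close copies: identity of a gene to its nearest member ran from 70.1% to 94.4% with a median of 88.9%, and SNORD114-22 was 93.1% identical to SNORD114-21. How reads that fit several copies were counted is not given in the sources used here and the value of any single SNORD113 or SNORD114 gene is therefore uncertain.

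Reads of 14q32 miRNAs were few in all libraries but more numerous in most exosome libraries. The 49 miRNAs together had 170, 700, 1188, 271 and 210 reads in exosomes 1 to 5, and 10, 230 and 9 reads in cells 1 to 3. Scaled to library size with TMM factors, the sums were 5.22, 20.0, 26.0, 7.95 and 14.7 CPM in exosomes, and 0.274, 7.65 and 0.174 CPM in cells. Exosomes 2 and 3 stood highest, and cells 1 and 3 lay below every exosome library, but cell 2 lay above exosome 1, so the groups overlapped. The mean was 14.8 ± 8.54 CPM in exosomes (SD, n = 5) and 2.70 ± 4.29 CPM in cells (SD, n = 3), a ratio of 5.47. Without cell 2, which held 92.4% of the cell group's 14q32 miRNA reads, the ratio was 66.0. In bulk RNA, fewer vesicles or cells carrying an RNA and less of that RNA in each cannot be told apart.

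Depth did not order the libraries in the same way. Cell 3 was the deepest library and had 9 reads of these miRNAs, while exosome 4, the shallowest, had 271. With miRNA counts alone as the total, the cluster's level was 55.7, 549, 519, 84.4 and 139 CPM in exosomes 1 to 5, and 2.77, 61.1 and 1.98 CPM in cells 1 to 3. On that scale exosomes 2 and 3 again stood highest and cell 2 again lay above exosome 1. With all counts of a library as the total and no TMM factors, the order of these libraries changed. The sums were then 6.30 to 36.6 CPM in exosomes and 0.157 to 4.22 CPM in cells, so the groups did not overlap. Intervals and floors given here cover counting error only, since the libraries carried no molecular identifiers; the exact 95% binomial interval of the summed reads was 10.3 to 13.1 CPM for exosome 4 and 0.0718 to 0.298 CPM for cell 3, here without TMM factors.

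**Figure D1:**
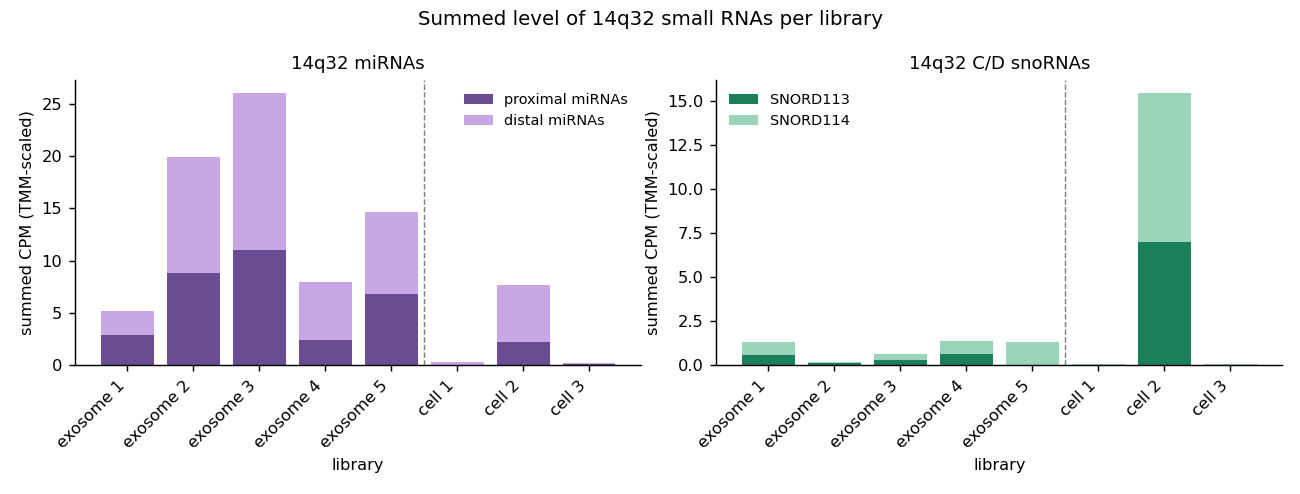
Summed CPM (TMM-scaled) of 14q32 miRNAs (left) and C/D snoRNAs (right) in each of the 5 exosome and 3 cell libraries, with bars stacked by stretch of the cluster. Exosomes 2 and 3 reached 20.0 and 26.0 CPM of miRNAs; for snoRNAs, cell 2 reached 15.4 CPM while no other library passed 1.38 CPM.

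The breadth of the cluster also differed between libraries. At least 1 read was found for 37 of the 49 miRNAs in exosomes and for 15 in cells, so 22 miRNAs had reads in exosomes only and 0 in cells only. Of 890 other miRNAs with reads, 150 had them in exosomes only and 102 in cells only. In exosomes 1 to 5, 13, 32, 31, 22 and 10 of the miRNAs had reads, and in cells 1 to 3, 6, 13 and 6 did. Of the 37 detected miRNAs, 20 had no more than 20 reads over all libraries, so the absence of a given one from a library was often not detectable at this depth. A few genes held most of the reads: MIR127 took 27.4% of the 14q32 miRNA reads in exosomes and the 6 most abundant took 71.9%, as read shares not scaled to gene length. MIR127 led in exosomes 1, 2, 3 and 5, and MIR381 led in exosome 4 and in cell 2.

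**Figure D2:**
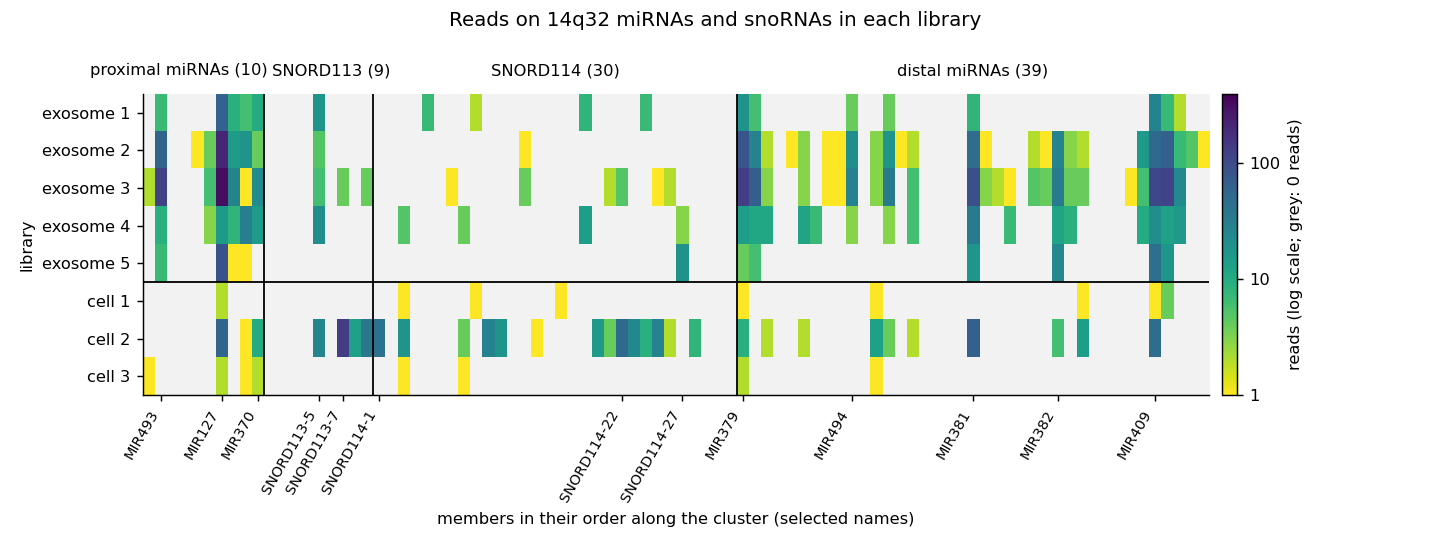
Reads of each of the 88 members (columns, in their order along the cluster) in each library (rows, exosomes above cells), coloured on a log scale with grey for 0 reads. Reads in exosomes fall mostly on the miRNAs at both ends, while the snoRNA stretch is filled mainly in cell 2, where 18 snoRNAs had reads.

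Only 11 of the 88 members, 10 miRNAs and SNORD113-5, passed the filter on low counts and were tested with edgeR's quasi-likelihood test, fitted on all 1178 features that passed and adjusted by Benjamini-Hochberg over them. A feature had to reach 0.335 CPM, before TMM factors, in at least 3 libraries, and 10 of these 11 members did so within the exosome libraries, so the filter itself favoured members that are high in exosomes. Of the 11, 5 were called higher in exosomes at an adjusted p under 0.05 and 0 were called lower. Over all features tested, 20.7% were called higher and 22.3% lower. No tested member was lower at an unadjusted p under 0.05, and 0 were called lower by DESeq2 or by limma-voom, which called 22.8% and 21.1% of all features lower. Every exosome library was above every cell library in 4 of the 11 members, MIR493, MIR432, MIR411 and MIR412, and in 21.6% of all features tested. The median log2 fold change, exosome over cell, was 3.45 over the 11 members and −0.09 over all features tested; with total-count scaling, which moves all features together, the median of all features was 0.19. Because of the filter, the count of 5 and the median of 3.45 describe the members that passed and not the cluster as a whole.

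Among the proximal miRNAs, MIR493 and MIR432 were called and MIR127 and MIR370 were not. MIR493 (chr14:101335397-101335485, GRCh37, plus strand), the first of these along the cluster, had 7, 58, 122, 9 and 7 reads in exosomes 1 to 5 and 0 reads in each of the 3 cell libraries. Every exosome library had reads and no cell library did. Its mean level was 1.06 ± 1.08 CPM in exosomes (SD, n = 5). Its 203 exosome reads over the pooled, TMM-scaled size of the exosome libraries gave a level at least 49.5-fold higher than the floor of 3 counts over the pooled cell libraries, and the other lower bounds given here were made in the same way. The fitted log2 fold change was 8.23 ± 1.70 (SE), adjusted p = 0.00169 by edgeR's quasi-likelihood test with Benjamini-Hochberg adjustment, a fitted size that depends on the prior count because cells were at 0.

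MIR432 lies at chr14:101350820-101350913 (GRCh37), opposite an exon of RTL1, the paternally expressed gene whose RNA some of the proximal miRNAs match perfectly. It had 9, 15, 27, 8 and 1 reads in exosomes 1 to 5 and 0 reads in each cell library. Exosome 5 held a single read, so the separation from cells is thin in that library. The ratio was at least 14.6-fold higher in exosomes than the cell floor, with a fitted log2 fold change of 6.54 ± 1.64 (SE) and an edgeR adjusted p of 0.00519.

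MIR127 (chr14:101349316-101349412, GRCh37) also lies opposite the RTL1 exon, and in mouse placenta it is known to repress Rtl1. It had 61, 209, 321, 16 and 89 reads in exosomes 1 to 5, and 2, 56 and 2 reads in cells 1 to 3. In CPM these were 1.87, 5.96, 7.03, 0.469 and 6.22 in exosomes, against 0.0549, 1.86 and 0.0386 in cells. Cells 1 and 3 were below every exosome library, but cell 2 was above exosome 4 and close to exosome 1. The log2 fold change of 2.75 ± 1.15 (SE) did not pass the test (edgeR adjusted p = 0.0633). Without cell 2 it was 6.34 with an adjusted p of 0.00201, and DESeq2, total-count scaling and limma-voom also called it. Over all the alternatives its adjusted p ran from 0.000825, with no filter on low counts, to 0.166, without cell 1, so the call depended on the test, the filter, the scaling and the libraries used.

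MIR136, also opposite RTL1, did not pass the filter. It had 6, 18, 1, 31 and 1 reads in exosomes and 0, 1 and 1 reads in cells, a ratio of group levels of 20.9 (95% interval 5.52 to 176, counting error only). Its reads were concentrated in exosomes 2 and 4, a different pair from the libraries in which MIR127 was highest. MIR370, within an intron of MEG8, had 10, 4, 22, 15 and 0 reads in exosomes and 0, 10 and 2 reads in cells. Exosome 5 had none and cell 2 lay among the exosome libraries, and the log2 fold change of 1.21 ± 1.25 (SE) did not pass (edgeR adjusted p = 0.465). The other proximal miRNAs had at most 13 reads in exosomes over all 5 libraries and at most 1 in cells, and 2 of the 10 had none anywhere.

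The distal miRNAs begin with MIR379 and MIR411, which lie in an intron of the long non-coding RNA MEG8 and share the 3p seed printed above. MIR379 (chr14:101488366-101488491, GRCh37) had 19, 83, 135, 14 and 4 reads in exosomes 1 to 5, and 1, 9 and 2 reads in cells 1 to 3. In CPM these were 0.583, 2.37, 2.96, 0.411 and 0.280 in exosomes, against 0.0274, 0.299 and 0.0386 in cells, so cell 2 lay just above exosome 5. The mean was 1.32 ± 1.25 CPM in exosomes and 0.122 ± 0.154 CPM in cells (SD, n = 5 and 3), with a log2 fold change of 3.48 ± 1.14 (SE) and an edgeR adjusted p of 0.0212. Without cell 2 the log2 fold change was 5.15. The call was lost without cell 1 (log2 fold change 2.98, adjusted p = 0.0875) and without cell 3 (3.43, adjusted p = 0.0673). The count row of MIR379 is 126 bases long, against a RefSeq hairpin of 67.

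MIR411 (chr14:101489662-101489757, GRCh37) had 6, 28, 67, 11 and 6 reads in exosomes and 0 reads in each cell library. Its 5 exosome libraries were all above the cells, and the ratio was at least 28.8-fold higher than the cell floor. The fitted log2 fold change was 7.51 ± 1.6 (SE), with an edgeR adjusted p of 0.00218.

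Near the far end of the cluster, MIR409 and MIR412 lie close together within an intron of the long non-coding RNA MEG9. MIR412 (chr14:101531784-101531874, GRCh37) had 7, 63, 118, 13 and 17 reads in exosomes and 4, 0 and 0 reads in cells. Every exosome library was above every cell library in CPM, at 0.215 to 2.59 CPM in exosomes, against 0 to 0.110 CPM in cells. The log2 fold change was 4.99 ± 1.32 (SE), with an edgeR adjusted p of 0.00607. Its 4 cell reads were all in cell 1, and without that library the log2 fold change was 8.41.

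MIR409 (chr14:101531637-101531715, GRCh37), its neighbour, had 27, 52, 110, 21 and 44 reads in exosomes and 1, 47 and 0 reads in cells. With TMM factors, cell 2 lay within the exosome range, at 1.56 CPM against 0.616 to 3.08 CPM in exosomes. The log2 fold change of 1.68 ± 1.19 (SE) did not pass (edgeR adjusted p = 0.274). Without cell 2 it was 6.63 (adjusted p = 0.00237), and with limma-voom on all libraries it was 4.30 (adjusted p = 0.0182). Thus of this adjoining pair, MIR412 had no read in cell 2 and MIR409 had 47.

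MIR381, hosted in an intron of MIR381HG, had 8, 47, 93, 34 and 17 reads in exosomes and 0, 64 and 0 reads in cells. Cell 2, at 2.13 CPM, was above all 5 exosome libraries, whose highest was 2.04 CPM, while the other cell libraries had none. That order depended on the TMM factors: exosome 3 had 93 reads among 32436286 counts, and cell 2 had 64 among 54461350. The log2 fold change was 0.73 ± 1.26 (SE, edgeR adjusted p = 0.675) with all libraries and 8.35 without cell 2 (adjusted p = 0.00250), the widest shift among the 10 tested miRNAs. With limma-voom on all libraries it was 4.14 (adjusted p = 0.0360).

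MIR382 had 0, 28, 33, 12 and 24 reads in exosomes and 0, 6 and 0 reads in cells, with a log2 fold change of 3.45 ± 1.5 (SE) that did not pass (edgeR adjusted p = 0.0737). Exosome 1 had none. Without cell 2 the log2 fold change was 7.55 (adjusted p = 0.0206), and it was called also by DESeq2 (adjusted p = 0.0203), with total-count scaling (0.0264), with no filter (0.0150), without exosome 1 (0.0189) and without exosome 3 (0.0417). The row of MIR382 is on the minus strand in the count tables and on the plus strand in RefSeq, as is that of MIR380, and whether counting used strand is not given in the sources used here. MIR495 did not pass the filter, and had 4, 18, 33, 3 and 0 reads in exosomes and 0, 4 and 0 reads in cells, a ratio of 10.6 (95% interval 3.93 to 40.3, counting error only).

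**Figure D3:**
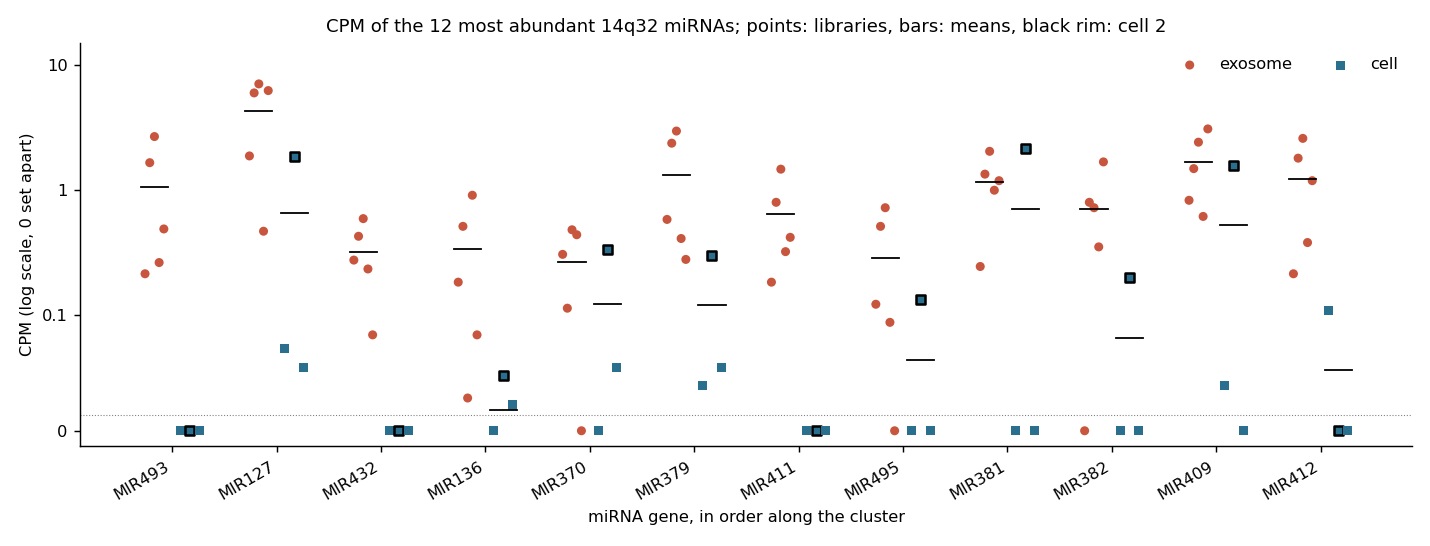
CPM of the 12 miRNAs with the highest mean over all libraries (log axis, with 0 set apart below the dotted line); circles are exosome libraries, squares cell libraries, a black rim marks cell 2, and horizontal bars are group means where above 0. For MIR493, MIR432 and MIR411 all 3 cell libraries are at 0, while for MIR381 cell 2 (2.13 CPM) lies above every exosome library with TMM factors.

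Further miRNAs with reads in exosomes and none in cells were MIR494, MIR369 and MIR541, named here after their values were seen. MIR494 had 4, 20, 28, 3 and 0 reads in exosomes 1 to 5, at least 13.4-fold higher than the cell floor. MIR369, next to MIR412, had 2, 7, 23, 16 and 0 reads, at least 11.7-fold higher. MIR541 had 0, 16, 6, 10 and 0 reads, at least 7.81-fold higher. All 3 were absent from exosome 5, in which 10 of the 49 miRNAs had reads. MIR543 and MIR485, also named after their values were seen, went the other way: MIR543 had 0, 3, 3, 0 and 0 reads in exosomes and 1, 13 and 1 in cells, and MIR485 had 0, 2, 4, 0 and 0 reads in exosomes and 1, 14 and 0 in cells. For each, the ratio of group levels was 0.293 (95% interval 0.0931 to 0.799, counting error only), and most of the cell reads were in cell 2.

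The 5 calls differed in how they depended on single libraries. Over 19 settings of the analysis, MIR493 and MIR411 were called in all 13 in which they passed the filter, MIR432 in all 15 and MIR412 in all 16, while MIR379 was called in 15 of 17. MIR493 and MIR411 did not pass the filter without exosome 2, 3 or 4, nor MIR432 without exosome 2 or 3. Leaving out any 1 cell library brought 16 members past the filter, so that number was not particular to cell 2. The number called was: without cell 2, 12 of the 16 were called higher, where 16.2% of all features were. The 12 were the 5 and MIR127, MIR381, MIR382, MIR409, MIR494, MIR495 and SNORD113-5. Without cell 1, and likewise without cell 3, 4 of the 16 were called higher, MIR493, MIR432, MIR411 and MIR412. Of all features tested, 179 of 1278 were called higher without cell 1, and 224 of 1258 without cell 3. Leaving out exosome 2 left 8 members tested and 2 called, MIR379 and MIR412, against 20.3% of all features. Exosomes 2 and 3 held 74.4% of the exosome group's 14q32 miRNA reads. Without both, an alternative chosen after seeing the data, 4 members passed the filter, none of them among the 5, and 0 were called, with 0 at an unadjusted p under 0.05, against 20.1% of all features called higher. With no filter on low counts, 62 members were tested, of which 13 were called higher and 10 lower, against 15.1% and 12.2% of all features, and the 10 were all snoRNAs with reads mainly in cell 2.

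**Figure D4:**
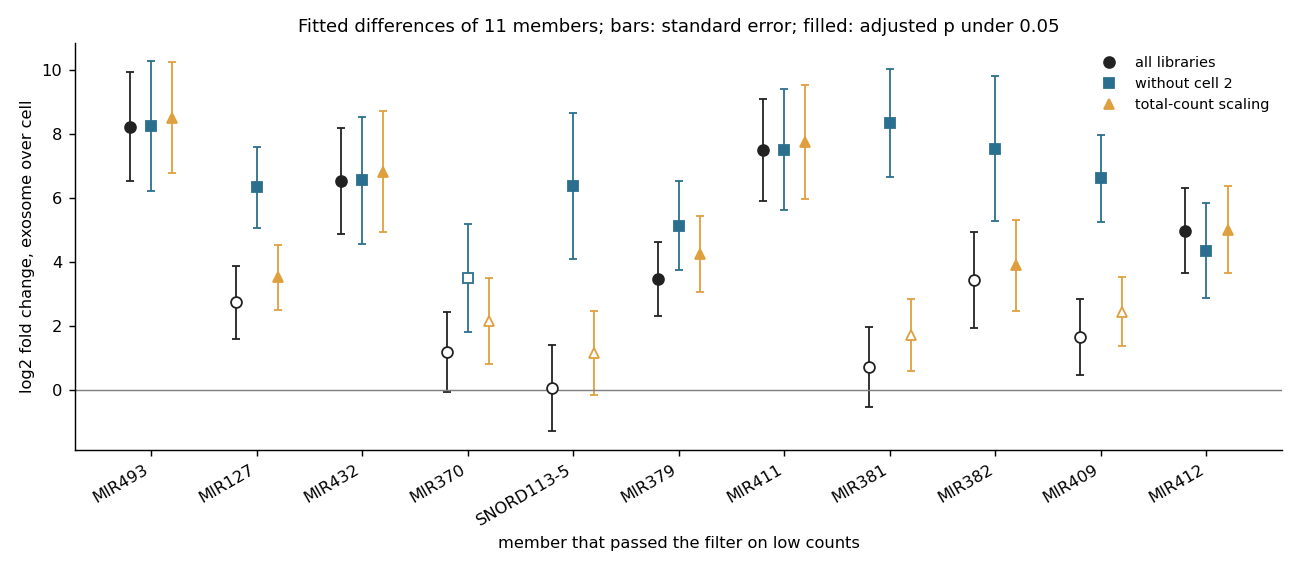
Log2 fold change (exosome over cell) with standard error for the 11 members that passed the filter, with all libraries, without cell 2, and with total-count scaling; filled symbols have an adjusted p under 0.05. MIR493, MIR432, MIR379, MIR411 and MIR412 are called under all 3 fits, while MIR381 is at 0.73 with all libraries and at 8.35 without cell 2.

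The snoRNA reads of the cell group lay almost wholly in cell 2. The 39 SNORD113 and SNORD114 genes together had 42, 6, 29, 47 and 19 reads in exosomes 1 to 5, and 3, 464 and 2 reads in cells 1 to 3. Cell 2 alone held 98.9% of the cell reads and lay far above every other library, while cells 1 and 3 lay below all 5 exosome libraries in CPM. The mean was 0.960 ± 0.535 CPM in exosomes (SD, n = 5) and 5.19 ± 8.88 CPM in cells (SD, n = 3). The ratio was 0.185 with cell 2 and 15.9 without it, so its direction rested on that library. Reads were found for 16 snoRNAs in exosomes and 20 in cells, 18 of them in cell 2 and 4 in cells 1 or 3.

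SNORD113-5 (chr14:101404524-101404601, GRCh37), within a MEG8 intron, was the only snoRNA tested. It had 18, 5, 6, 21 and 0 reads in exosomes 1 to 5 and 0, 26 and 0 reads in cells 1 to 3. It was the leading snoRNA in exosomes 1 to 4 and absent from exosome 5. The log2 fold change was 0.08 ± 1.35 (SE) with an edgeR adjusted p of 0.970, it was −0.07 when TMM factors came from miRNAs only, and it was 6.39 without cell 2 (adjusted p = 0.0438).

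The most abundant snoRNAs of the cell group were those of cell 2. SNORD113-7 had 4 reads, all in exosome 3, against 134 reads, all in cell 2. SNORD114-22 had 5 reads in exosome 3, against 51 in cell 2, and SNORD113-9 had 4 in exosome 3, against 37 in cell 2. SNORD114-1 had 0 reads in exosomes and 42 in cell 2. In each case the other 2 cell libraries had 0, so these differences compare 1 cell library with the rest. SNORD114-27 showed the opposite, with 3 reads in exosome 4 and 19 in exosome 5, and 0 reads in cells. SNORD114-19, named after its values were seen, had 8 and 14 reads in exosomes 1 and 4 and none elsewhere. Of the 25 snoRNAs with reads, 5 had them only in exosomes and 9 only in cells, 8 of these only in cell 2; of 179 other C/D box snoRNAs with reads, 12 had them only in exosomes and 7 only in cells. These counts rest on few reads of near copies.

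Cell 2 was also the cell library with 14q32 miRNAs, but not with every one of them: it had 64 reads of MIR381, 56 of MIR127 and 47 of MIR409, and 0 of MIR493, MIR411, MIR432 and MIR412. The small TMM factor of cell 2 raised its CPM, yet its raw reads, 230 of miRNAs and 464 of snoRNAs, were also above those of the other cell libraries. Without TMM factors its miRNA sum, 4.22 CPM, was below the 6.30 CPM of exosome 1. Its snoRNA sum, 8.52 CPM, was still above every exosome library, of which the highest was 2.01 CPM. Beyond these values, the part of the scaling in the result was not tested.

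The long non-coding RNAs of the domain gave another comparison. Of 11 listed genes of the 14q32 domain other than the members, 4 were in the tables, SNORD112 had 0 reads in all 8 libraries, and the other 3 were tested and all called higher in exosomes, read beside the 20.7% of all features. MEG3, the maternally expressed long RNA that ends near the proximal miRNAs, had 41, 14, 18, 72 and 108 reads in exosomes 1 to 5 and 8, 0 and 6 reads in cells 1 to 3 (log2 fold change 4.30 ± 1.23 SE, edgeR adjusted p = 0.0102). DIO3OS, antisense to DIO3, had 28, 3, 8, 58 and 20 reads in exosomes and 1, 0 and 3 in cells (4.59 ± 1.30 SE, adjusted p = 0.00966). MEG9 had 40, 2, 12, 36 and 0 reads in exosomes and 3, 0 and 1 in cells (3.82 ± 1.46 SE, adjusted p = 0.0443). Its count row, chr14:101536248-101539274 (GRCh37), begins after MIR409 and MIR412 and so differs from the GENCODE gene that holds them. Their order over libraries was not that of the miRNAs: in exosomes 2 and 3, where the miRNAs were highest, MEG3 and DIO3OS were lowest, and in cell 2 all 3 long RNAs had 0 reads. RNA under 200 nt was sequenced, so these counts are of short fragments.

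miRNAs typical of other tissues were counted beside the cluster. Some were called higher in exosomes in the lists for liver, stroma, endothelium and epithelium, and none in those for red cells, muscle and neural tissue. These counts are read beside the 20.7% called higher and 22.3% called lower over all features tested. In the liver list, MIR122 was called and MIR192 was not, with summed levels of 59.7 to 149 CPM in exosomes and 10.8 to 45.3 CPM in cells. MIR122, a hepatocyte miRNA, had 19.8, 35.3, 114, 37.5 and 70.0 CPM in exosomes 1 to 5, and 1.34, 2.00 and 0.424 CPM in cells 1 to 3. In the list of stroma and smooth muscle, MIR143 and MIR199B were called of 4 tested, with sums of 4.94 to 31.9 CPM in exosomes and 1.1 to 1.76 CPM in cells. The other tested genes, MIR199A1 and MIR199A2, had nearly the same reads in every library. MIR126 of endothelium and platelets was called, at 10.1 to 53.7 CPM in exosomes, against 1.2 to 6.30 CPM in cells. MIR203 was the 1 called of 5 epithelial miRNAs, whose sums were 17.5 to 26.2 CPM in exosomes and 22.4 to 52.5 CPM in cells. In the lists for red cells and muscle, with 1 member tested in each, none was higher. The muscle miRNA tested was MIR499A, with means of 0.678 CPM in exosomes and 0.992 CPM in cells. MIR1-1, MIR206 and MIR208A did not pass the filter, and their means were higher in exosomes. These were 0.476, 0.0609 and 0.62 CPM in exosomes, against 0.0376, 0 and 0 CPM in cells. Red cell sums were 22.4 to 88.3 CPM in exosomes and 9.46 to 51.7 CPM in cells, and muscle sums 0.570 to 4.19 CPM in exosomes and 0.823 to 1.37 CPM in cells. In the neural list none of 3 was higher and MIR128-1 was lower, with sums of 102 to 251 CPM in exosomes and 439 to 790 CPM in cells. The others of the 3, MIR9-1 and MIR9-3, had nearly the same reads in every library. Exosome 3 was the highest library for MIR122, MIR143 and the 14q32 miRNAs. Cell 2, with most 14q32 reads among the cells, had 2.00 CPM of MIR122, the highest of the cells and below every exosome library. It had 0.665 CPM of MIR143, between the other cell libraries. For MIR122 that order depended on the TMM factors: cell 2 had 60 reads among 54461350 counts, and cell 1 had 49 among 25675636. Cell 2 was also the highest cell library for MIR486, the red cell miRNA tested, at 51.7 CPM, against 9.46 and 23.7 CPM in cells 1 and 3. With TMM factors it was highest for MIR200A (8.08 CPM) and MIR141 (0.832 CPM) too. It was the lowest cell library for MIR192 (8.85 CPM), MIR126 (1.20), MIR199B (0.133), MIR203 (0), MIR200B (10.7), MIR200C (2.79) and MIR128-1 (373). The part of RNA from other cells or from serum in the 14q32 result was not tested.

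**Figure D5:**
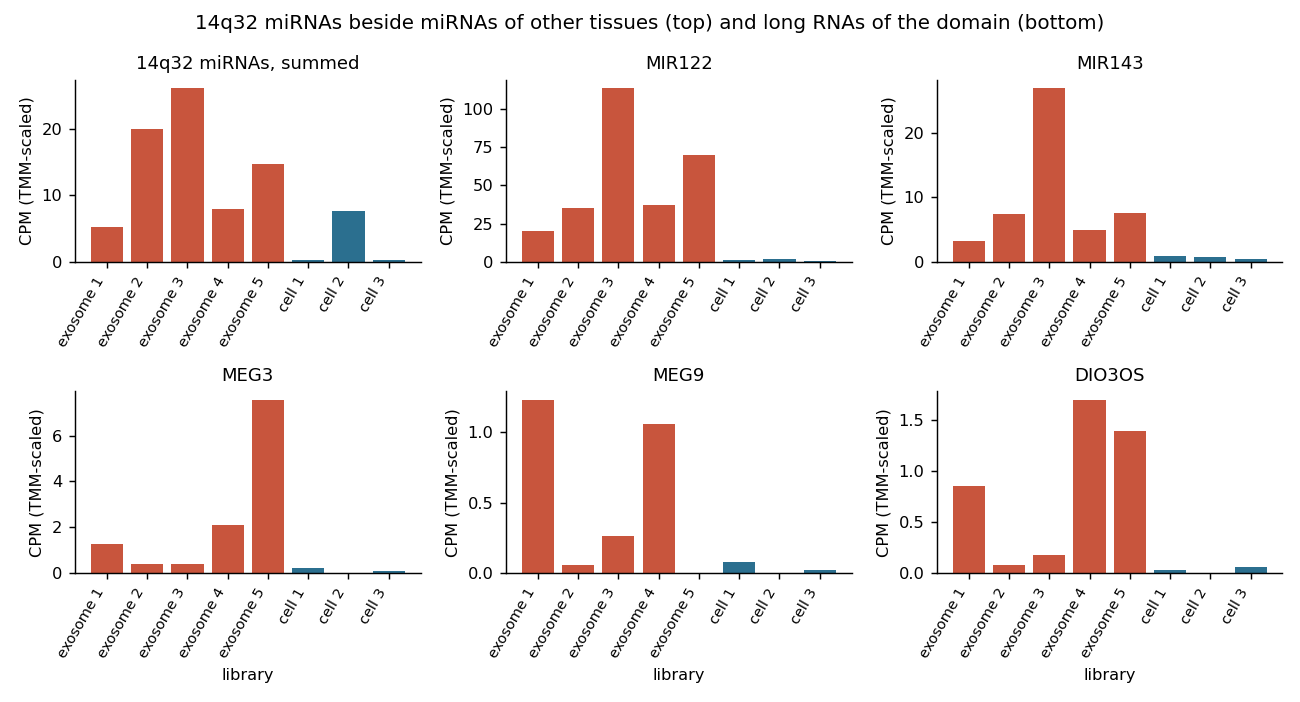
CPM (TMM-scaled) in each library for the summed 14q32 miRNAs, MIR122 and MIR143 (top) and the long RNAs MEG3, MEG9 and DIO3OS (bottom), with exosome libraries in red and cell libraries in blue on separate linear axes. Exosome 3 is highest in the 3 top panels (26.0, 114 and 26.9 CPM), while in the lower panels exosomes 2 and 3 are low and cell 2 is at 0.

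Compared with the other large imprinted clusters, each had its own values. The 71 C/D snoRNAs of the imprinted 15q11 region had 24 tested members, of which 0 were called higher and 5 lower in exosomes, with a median log2 fold change of −0.51. The 5 are 20.8% of those tested, near the 22.3% called lower over all features, of which 20.7% were called higher. The 45 miRNAs of the imprinted chromosome 19 cluster, a placental group, had 9 reads in all exosome libraries and 6 in all cell libraries, and none was tested. Of the other miRNAs in the tables, 331 were tested, with 37 called higher and 26 lower and a median of −0.04, and of 145 other C/D box snoRNAs tested, 1 was higher and 104 lower, with a median of −2.75. These counts stand beside the 10 tested 14q32 miRNAs, 5 of them higher, as a description, since the filter kept mainly 14q32 miRNAs that were high in exosomes.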

How the data were processed

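Each deposited table holds whole-number read counts for 1 library; its column header, with feature name, position, strand and length, has the layout that featureCounts writes, per the file headers. Tools listed in the submitters' processing notes are cutadapt (version 1.1), STAR, DESeq2 (version 1.8.2) and featureCounts; the listed builds are hg19, hs37d5 and GRCh37, and the tables' positions are taken as GRCh37. How multi-mapping reads and strand were handled is not given in the sources used here. Counts were tested with edgeR 4.0.16 (R 4.3.3): the default low-count filter (minimum 10), TMM factors, the quasi-likelihood test without robust moderation, and Benjamini-Hochberg adjustment over all 1178 features that passed, with a threshold of 0.05. CPM are counts over TMM-scaled library size. A group at 0 was set to a floor of 3 counts over the group. Alternatives were DESeq2 1.42.0, limma-voom (limma 3.58.1), other scalings, filters of none and of 50 counts in 3 libraries, near-identical features counted once, a replicate block, and libraries left out; robust moderation, the pairs of libraries left out together and the summed snoRNA level were added after seeing the data. Members and lists were chosen with earlier results of these data known. Named members are those called, the 12 miRNAs and 6 snoRNAs with the highest mean CPM, the leader of each stretch, and members sharing a seed with these; exceptions are marked. The fit was tested on simulated data. The labels give exosomes 1 to 3 and cells 1 to 3 the same numbers, and the series' design text pairs 3 exosome samples with cells without naming them, so the main fit has no block. No 2 libraries of a group had counts that agreed within sampling noise.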

Additional observations from a re-analysis of the deposited data

Results flagged for a closer look

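Of 27 groups of exosome values examined, 5 had 1 library far from the other 4 by Dixon's criterion, which chance alone meets in about 1 in 20 groups of continuous values. That rate does not apply to the 3 snoRNAs whose other 4 libraries were at 0, since any reads in 1 library then meet the criterion. For SNORD113-7 and SNORD113-9, exosome 3 was at 0.0876 CPM each and the other exosome libraries at 0. For SNORD114-22, exosome 3 was at 0.110 CPM and the others at 0. For SNORD114-27, exosome 5 was at 1.33 CPM and the others at 0 to 0.0880 CPM. MEG3 was at 7.55 CPM in exosome 5 and at 0.394 to 2.11 CPM in the other exosome libraries. Exosome 5 also had the smallest TMM factor, 0.524, so that 1 read there is worth 0.0699 CPM; the part of this in the MEG3 value was not tested.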

How the results depend on the processing

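The count of members called higher in exosomes was 5 with all libraries and 13 of 62 without the filter. With at least 50 counts in 3 libraries it was 1 of 1 (MIR127, where 27.1% of all features were called higher). With limma-voom it was 8 of 11 (19.5% of all features). It was 16 of 16 without exosome 5 and cell 2 (19.4%), and 0 of 4 without exosomes 2 and 3. Both pairs were chosen after seeing the data. Cell 2 held 96.7% of the cell group's 14q32 reads, so leaving it out largely fixed the 16 of 16 in advance. That count is therefore no support for a difference. Leaving out 1 library at a time gave 2 to 12. The replicate block on libraries 1 to 3 called 3 of 5 tested (MIR127, MIR432 and MIR379; 14.7% of all features), the same as those libraries without it; deviations of same-numbered libraries correlated at 0.01, −0.10 and 0.27, so the numbers are not shown to pair them. Members called lower, 0 with all libraries, were 10 without the filter, all snoRNAs, and 0 to 0 with 1 library left out. The summed miRNA level, log2 2.45, ran from 1.90 to 6.04 with 1 library left out, the highest without cell 2. The summed snoRNA level, −2.43, ran from −3.01 to 3.99, reversed only without cell 2. SNORD113-5, 0.08, was −0.07 with miRNA-only TMM factors, −0.09 without cell 3 and −0.57 without cell 1, the lowest with 1 library left out, and 6.39 without cell 2, the highest; the cause was not tested. A member at 0 in cells was bounded by 3 counts over the group, 0.0253 CPM, so differences below that level were not detectable.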

Other observations

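Small RNA genes upstream of the cluster's limits were counted beside its miRNAs. MIR2392, before the first member and within the span of MEG3, had 4, 0, 0, 0 and 1 reads in exosomes 1 to 5. It had 0, 0 and 1 reads in cells 1 to 3, too few for a comparison. MIR342, farther upstream on 14q32 and well known from lymphoid cells, averaged 83.4 ± 24.6 CPM in exosomes (SD, n = 5) and 87.8 ± 40.2 CPM in cells (SD, n = 3), with a log2 fold change of −0.07 and an edgeR adjusted p of 0.919. MIR345 averaged 4.54 ± 1.58 CPM in exosomes (SD, n = 5) and 2.64 ± 1.62 CPM in cells (SD, n = 3), with a log2 fold change of 0.78 and an edgeR adjusted p of 0.328.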
